A study of Mus musculus with 36 samples.

Results

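Voltage-gated sodium and calcium channels, HCN channels, the sodium leak channel and TRP cation channels were followed through 36 single mouse neurons. The set was a fixed list of 29 genes, of 55359 in the deposited table, and all 29 were found by symbol. It held 5 sodium channel alpha subunits, 3 sodium channel beta subunits, 5 high-voltage-activated and 3 T-type calcium channel pores, 4 calcium channel beta subunits, 3 HCN genes, Nalcn and 5 TRP genes. These channels carry the inward currents of a neuron. Sodium channels start the action potential, high-voltage-activated calcium channels couple it to transmitter release and to gene regulation, and T-type and HCN channels shape rebound firing and rhythm near rest. Nalcn gives a standing sodium leak, and TRP channels add slow cation currents downstream of receptors, calcium or oxidative stress. In the superior colliculus, which turns visual and other sensory input into orienting movements, such channels set how excitatory and inhibitory neurons fire.

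Each library was 1 neuron. Labelling used MADM, in which recombination between chromosomes gives the progeny of a dividing progenitor their own colours, in mice of genotype M11GTTG-Fz10-CreER (22 cells, 11 clones) or M11GTTG-Sox2-CreER (14 cells, 7 clones), with labelling on embryonic day 12. Both genotypes carry the same MADM cassettes and differ in the promoter that drives the inducible recombinase. The mice had a mixed C57/Bl6, FVB and CD1 background, and no age at collection is given for single cells. A clone is the set of cells descended from 1 radial glia progenitor, and 2 cells were sequenced from each of 18 clones. By tissue label 22 cells (16 clones) came from sSC, 12 (11 clones) from dSC and 2 (2 clones) from PAG, read here as superficial and deep superior colliculus and periaqueductal grey. In 9 clones 1 cell lay in sSC and the other in dSC. No animals are named, so several clones can come from 1 mouse. For fits on clone means, p-values describe the spread between those means. In the tissue fit 9 clones give a mean to each side, and in the transmitter fit 5 clones do. Without a block these means count as independent. Fits with clone as a block rest on the spread of differences within clones, and the clone test on the spread within clones. Fits on a continuous balance of transmitter genes take single cells as units.

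Values are the authors' signal for exons plus introns, named TPM, and each cell sums to 2000000. They keep no read depth, so depth is unknown, and a gene listed at 0 may have failed to be captured. Library quality was judged by how many genes reached a value of 1, a number that ran from 2661 to 16769 (median 12058). The lowest cell, the sSC cell of clone B, lay well under the next, at 6180 genes. Snap25, a synaptic fusion protein of neurons, ran from 299.8 to 4008, and all 8 neuronal markers were present. The summed value of those 8 markers had a median of 3931. Microglial, oligodendrocyte and astrocyte transcripts were present too, with median summed values of 2124 over 12 genes, 3782 over 10 genes and 758.8 over 8 genes. Their part in the results was not tested.

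Cells were also read by transmitter genes. Slc17a6 encodes the protein that loads glutamate into vesicles in excitatory neurons here, and Gad1 and Gad2 encode the enzymes that make GABA. With a limit of 100, 11 cells (9 clones) were Slc17a6-high with both Gad genes below it, 19 cells (14 clones) were Gad-high with Slc17a6 below it, 5 cells passed for both and 1 for neither. These classes rest on measured marker genes and not on a label.

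Most neurons held transcripts of nearly the whole set. The list was chosen with earlier results of these data known, so this describes the chosen genes and not their families. In sSC and dSC cells all 29 reached 1 in at least 25% of the cells, beside 7 of 23 other genes of these families. A cell had between 7 and 29 of the 29 genes at 1 or more, with a median of 24, and this number followed the number of all genes detected (Spearman rho 0.847 over 36 cells, as a description). The cell with 7 was the sSC cell of clone B. Genes of the same set differed widely in level, from Scn1a to Trpc4.

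**Figure D1:**
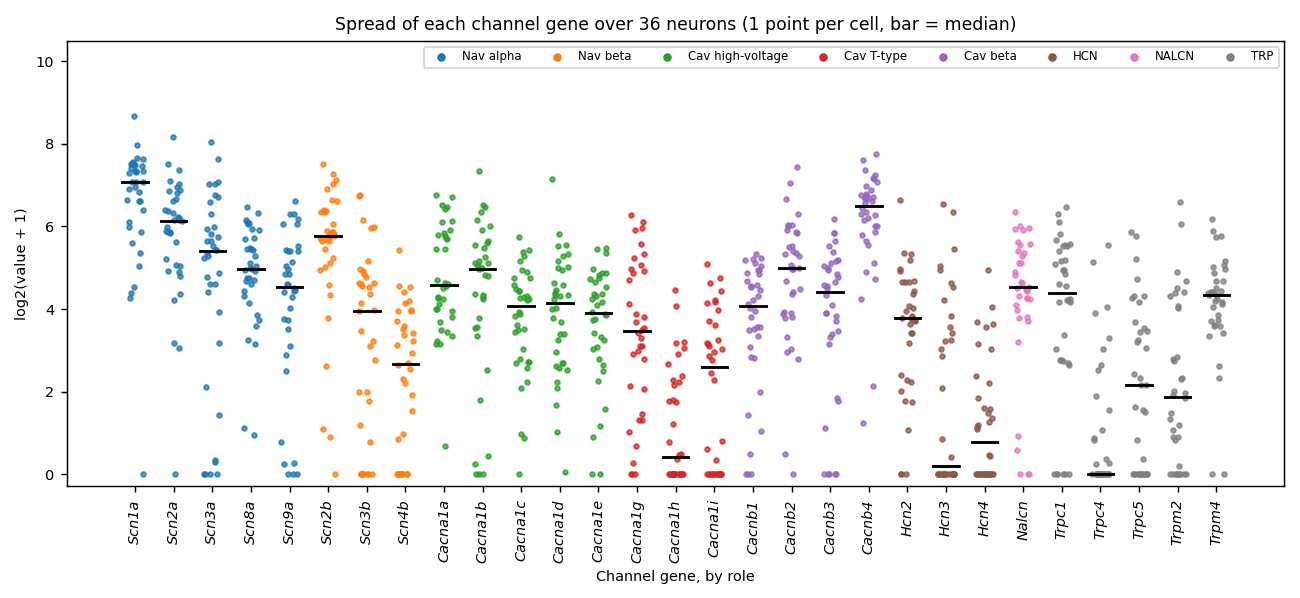
Level of each of the 29 channel genes, as log2(value + 1), with 1 point per cell for 36 neurons and a bar at the median. Scn1a and Cacnb4 have the highest medians, at 134.6 and 89.9 before the log, and Trpc4 has a median of 0.

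Among sodium channel alpha subunits, Scn1a, the subunit whose loss causes Dravet syndrome, was the highest. Its median was 134.6 (0 to 405.0), and it was the highest alpha subunit in 25 of 36 cells. Scn2a, the subunit of the initial axon segment in young neurons, followed with a median of 69.7 (0 to 288.8) and led in 6 cells. Scn3a, a subunit most abundant in embryonic rodent brain, had a median of 41.1 (0 to 264.1) and led in 4 cells. Scn8a, the subunit of mature nodes and initial segments, had a median of 30.6 (0.936 to 88.3). Scn9a, best known from sensory neurons, had a median of 22.2 (0 to 97.8). The middle 50% of cells spanned 67.0 to 177.9 for Scn1a, 32.3 to 102.7 for Scn2a, 12.7 to 66.1 for Scn3a, 20.3 to 51.0 for Scn8a and 9.71 to 41.5 for Scn9a. Neighbours in this order overlapped in that range, and only Scn1a lay wholly above Scn3a, Scn8a and Scn9a. All 5 alpha subunits were at 1 or more in 26 cells.

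Among alpha subunits Scn1a varied most closely with Scn2a and Scn8a. It followed Scn2a with a rho of 0.573 and Scn8a with a rho of 0.567 over 36 cells, and these were 0.546 and 0.540 given the number of genes detected. Their start regions, which differ in base composition, are shown because these genes varied together. Each is the 250 bases before a RefSeq start in build GRCm38.p6, 5′ to 3′ on the gene's strand, with CpG in capitals. Where a gene had several starts, the window richest in CpG is shown.
Scn1a (chr2:66440838-66441087, minus strand): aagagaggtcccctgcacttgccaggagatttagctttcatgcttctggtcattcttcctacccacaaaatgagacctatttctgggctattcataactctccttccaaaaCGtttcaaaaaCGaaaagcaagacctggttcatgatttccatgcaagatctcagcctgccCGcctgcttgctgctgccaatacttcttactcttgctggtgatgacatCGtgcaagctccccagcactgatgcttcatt
Scn2a (chr2:65668436-65668685, plus strand): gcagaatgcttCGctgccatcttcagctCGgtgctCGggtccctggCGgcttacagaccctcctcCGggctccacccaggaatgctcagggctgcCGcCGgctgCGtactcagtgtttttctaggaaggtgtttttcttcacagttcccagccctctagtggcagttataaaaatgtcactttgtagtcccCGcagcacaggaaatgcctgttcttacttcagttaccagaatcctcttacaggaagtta
Scn8a (chr15:100870395-100870644, plus strand): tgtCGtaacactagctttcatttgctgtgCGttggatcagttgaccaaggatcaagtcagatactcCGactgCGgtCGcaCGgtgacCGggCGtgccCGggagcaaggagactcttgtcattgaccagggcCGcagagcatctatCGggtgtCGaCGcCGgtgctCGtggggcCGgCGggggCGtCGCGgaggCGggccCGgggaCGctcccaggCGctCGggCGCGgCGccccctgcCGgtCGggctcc
The Scn8a window held 30 CpG at 68.0% GC, the Scn2a window 9 at 53.2% and the Scn1a window 4 at 46.8%. The Scn1a window also overlaps an antisense transcript, and 208 of its 250 bases are exon of Gm13629 on the other strand.

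RefSeq windows were found for 22 of the 29 genes, 32 windows in all, and there was none for Scn3a, Scn3b, Cacna1a, Cacna1g, Cacna1h, Hcn3 and Trpm4. Of the 32 windows 14 held 15 or more CpG, beside 27.3% of all 32851 windows. CpG number in the richest window of each gene did not follow the median level across the genes (rho -0.008 over 22 genes, which are not independent replicates). The letters TATAAA were found on either strand in 4 of the 32 windows (Cacna1d, Scn2a, Trpc4 and Trpm2), beside 12.4% of all windows. GGGCGG, on either strand, was found in 12 of the 32 windows, beside 32.7% of all windows. A match of one motif cannot overlap a match of the other.

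Scn3a, Scn2a, Scn1a and Scn9a lie in 1 stretch of chromosome 2, with no other protein-coding gene between Scn3a and Scn2a or between Scn1a and Scn9a. Neighbours Scn3a and Scn2a varied together (rho 0.535 over 36 cells), and Scn1a and Scn9a less so (rho 0.222). Scn2b and Scn4b are also direct neighbours, on chromosome 9, with a rho of -0.041.

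Sodium channel beta subunits tune the gating and surface placement of the alpha subunits. Scn2b, which is linked to alpha subunits by a disulphide bond, was the highest of its group in 27 cells, with a median of 53.6 (0 to 180.7). Scn3b, a non-covalent partner, had a median of 14.6 (0 to 107.9), was listed at 0 in 8 cells and led in 7. Scn4b, linked to resurgent sodium current, had a median of 5.35 (0 to 41.8) and was listed at 0 in 10 cells. Scn2b reads cannot be told from those of Gm10684, an overlapping transcript on the other strand, because strand use is not stated. Gm10684 had a median of 138.6 and followed Scn2b with a rho of 0.911.

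The same doubt touches other genes of the set. By an annotation of an older build, 16 of the 29 have a gene on the opposite strand, and in 7 that gene had a median above 0. Beside Scn2b these were Cacnb4 with A430018G15Rik (median 727.9, rho 0.770), Scn9a with Gm13629 (105.3, rho 0.788), Trpm4 with Rpl14-ps1 (34.98, rho 0.876), Scn1a with Gm13630 (15.1, rho 0.459), Cacna1d with Dcp1a (3.98, rho 0.454) and Cacna1c with Dcp1b (1.69, rho 0.372). Where the partner is abundant, the level of the channel gene is uncertain.

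Calcium channel pores were present together. Cacna1b, the N-type pore of presynaptic terminals, had a median of 30.6 (0 to 162.6) and led the high-voltage group in 14 cells. Cacna1a, the P/Q-type pore, had a median of 22.96 (0.598 to 107.4) and led in 12 cells. The L-type pores Cacna1d and Cacna1c had medians of 16.7 (0.0300 to 142.1) and 16.05 (0 to 52.2), and the R-type pore Cacna1e had 13.97 (0 to 43.8). All 5 were at 1 or more in 27 cells, and the middle ranges of all 5 overlapped. The L-type genes Cacna1c and Cacna1d were the most correlated of the 406 pairs of the set, with a rho of 0.707 (0.683 given genes detected).

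T-type calcium channels open near rest and support burst firing. Cacna1g had a median of 10.03 (0 to 77.0) and was the highest T-type gene in 26 cells. Cacna1i had a median of 5.11 (0 to 33.2) and led in 7 cells. Cacna1h was at 1 or more in 15 cells and led in 2. Cacna1i also followed the number of genes detected more closely than any other gene of the set, with a rho of 0.622.

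Calcium channel beta subunits carry the pores to the membrane and set their gating. Cacnb4, the subunit mutated in lethargic mice, was at 1 or more in all 36 cells, had a median of 89.9 (1.35 to 214.7), and led its group in 29 cells. Cacnb2, known also from cardiac L-type channels, had a median of 30.96 (0 to 171.6). Cacnb3 had 20.5 (0 to 71.1) and Cacnb1, the beta subunit of the skeletal muscle channel that neurons also use, had 15.9 (0 to 39.2). The middle range of Cacnb4, 56.7 to 111.1, lay above that of Cacnb2, 13.9 to 56.6. This rank of Cacnb4 is uncertain, because its opposite-strand partner A430018G15Rik had a median of 727.9 and strand use is not stated.

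HCN channels open on hyperpolarisation. Hcn2 was the most widespread of the 3, at 1 or more in 33 cells with a median of 12.7 (0 to 98.1), and it led in 22 cells. Hcn3 and Hcn4 were at 1 or more in 16 and 18 cells, yet Hcn3 reached 91.9 in 1 cell. Nalcn, the leak channel pore, had a median of 21.996 (0 to 80.7) and was at 1 or more in 31 cells. Among TRP genes, Trpc1, a receptor-operated channel subunit, had a median of 20.1 (0 to 88.4), and Trpm4, a calcium-activated sodium-permeable channel, had 19.4 (0 to 71.6). Trpc5, opened downstream of Gq-coupled receptors, had 3.45 and Trpm2, opened by ADP-ribose under oxidative stress, had 2.67. Trpc4, the close relative of Trpc5, was at 1 or more in 11 cells.

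**Figure D2:**
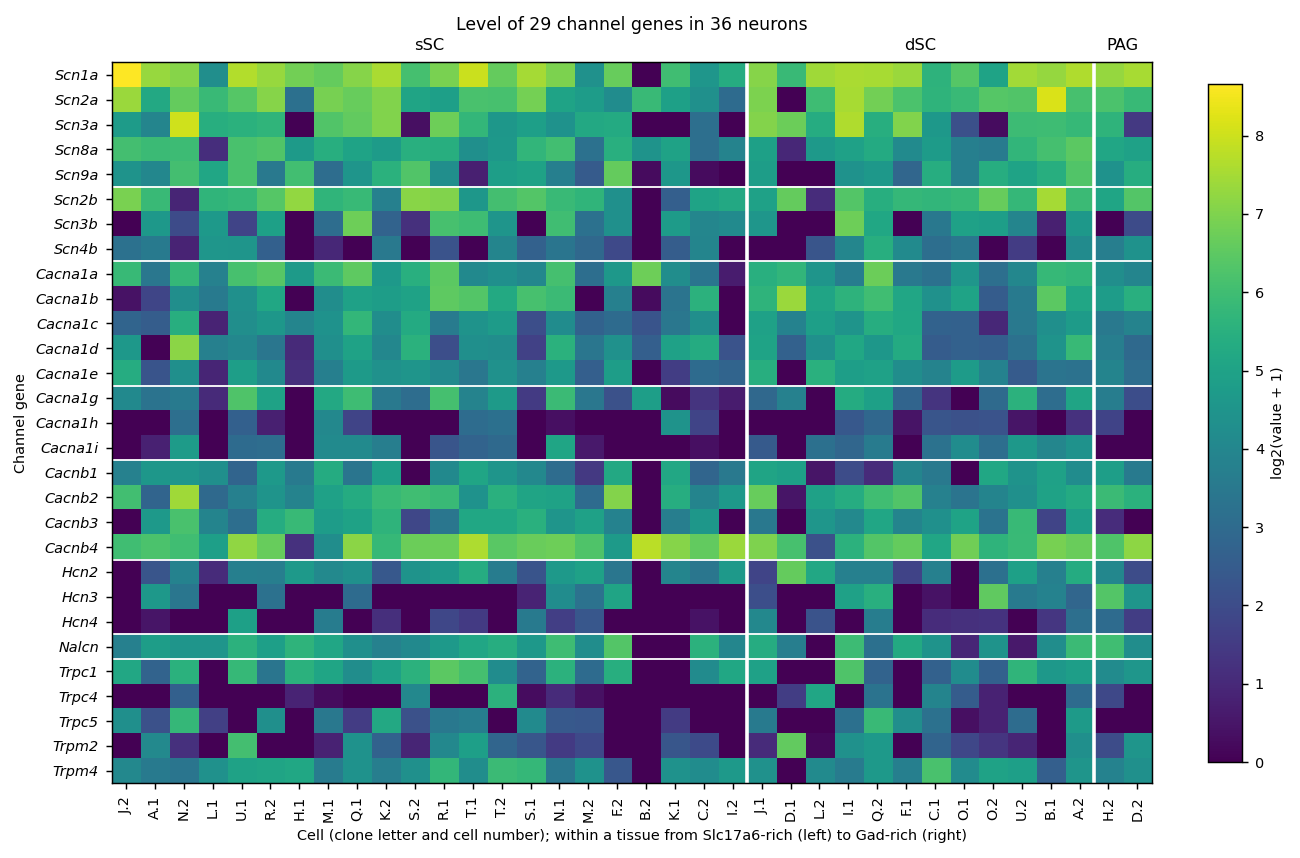
Level of the 29 channel genes (down, by role) in 36 neurons (across, by tissue and within a tissue from Slc17a6-rich to Gad-rich), as log2(value + 1). Rows of Scn1a and Cacnb4 are bright in nearly every cell, while Cacna1h, Hcn3, Hcn4 and Trpc4 are dark in most, and the sSC cell of clone B (B.2) has 7 genes at 1 or more.

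Pairs within the set tended to vary together slightly. Over 406 pairs the median rho was 0.140, beside 0.093 for all pairs of the 14902 genes that passed the filter. Given the number of genes detected, the median over the 406 pairs was 0.067, and none was computed for all pairs. After Cacna1c with Cacna1d, the highest were Cacna1e with Cacnb2 (0.586), Scn1a with Scn2a (0.573) and Cacna1a with Cacna1g (0.568). The lowest was Cacna1d with Trpm4 (-0.345). Cells share clones and libraries differ in quality, so these are descriptions.

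The first comparison asked whether channel genes differ between sSC and dSC. Cells of 1 clone and tissue were averaged on log2(value + 1), which gave 16 sSC and 11 dSC clone means, and limma was used across 14613 genes with Benjamini-Hochberg adjustment. No gene of the whole table passed an adjusted p of 0.05 (0% called), and 5.16% of genes had an unadjusted p below 0.05. Of the 29 channel genes none passed, 4 had an unadjusted p below 0.05, 8 were higher and 21 lower in sSC. Their median difference was -0.40, beside -0.31 for all genes, of which 67.3% were lower in sSC. The median over the 29 genes was -0.07 with genes detected in the model (0.07 for all genes) and 0.10 after quantile normalisation. Without the sSC cell of clone B it was -0.12 (-0.14 for all genes), and 2 of the 29 genes had an unadjusted p below 0.05. Microglial markers were also lower in sSC for 11 of 12 genes. Their summed value ran from 185.6 to 14282 in sSC cells, where Trem2 and Ptprc had a median of 0, and from 85.4 to 13418 in dSC cells.

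Cacna1b showed the smallest p. It ran from 0 to 90.5 with a median of 18.8 in sSC cells, against 4.77 to 162.6 with a median of 33.8 in dSC cells. The ranges overlapped, though 3 sSC cells and no dSC cell were listed at 0. The difference was -1.95 (SE 0.77, limma adjusted p = 0.933). Scn3a had medians of 32.7 in sSC and 57.7 in dSC cells, and Cacna1i 0.624 and 8.32, with differences of -1.69 (SE 0.82) and -1.48 (SE 0.70). Trpc4 reached 1 in 4 of 22 sSC cells, against 6 of 12 dSC cells (difference -1.19, SE 0.55). These differences were not past the threshold. In the other direction, Trpc1 had a median of 31.5 in sSC and 11.6 in dSC cells (difference 0.83, SE 0.82), Nalcn 23.8 and 19.5 (0.66, SE 0.74) and Cacnb4 97.0 and 75.3 (0.24, SE 0.65). Each of these 3 differences was about its SE or less.

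The 2 PAG cells entered no comparison of tissues. Scn1a was at 182.5 and 157.4 and Cacnb4 at 144.6 and 76.1 in them, both inside the range of the other cells.

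The same tissues were then compared inside the 9 split clones. Of 14662 genes, 1 passed (0.00682% called) and 8.96% had an unadjusted p below 0.05. None of the 28 channel genes tested passed, 4 had an unadjusted p below 0.05, and 23 were lower and 5 higher in the sSC cell. The median was -0.88, beside -0.67 for all genes, of which 76.9% were lower. The sSC cell had fewer genes detected in 7 of 9 clones, and with genes detected in the model the median was -0.28 (0.07 for all genes). Microglial markers moved the same way: 12 of 12 were lower in the sSC cell, 5 with an unadjusted p below 0.05, and Aif1 differed by -4.02 (limma adjusted p = 0.452). Their part in the channel differences was not tested.

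Cacna1i was lower in the sSC cell in 7 of 9 clones. The sSC and dSC cells had 0.73 and 20.5 in clone A, 0 and 14.9 in B, 0.27 and 8.56 in C, 0 and 0 in F, 0 and 6.30 in I, 0 and 4.48 in J, 0 and 8.08 in L, 16.9 and 11.3 in Q, and 7.19 and 23.7 in U. Thus 5 sSC cells were listed at 0, against 1 dSC cell. The difference was -2.23 (SE 0.80, limma adjusted p = 0.494), and it was -1.31 (SE 1.02) with genes detected in the model.

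Cacna1b was also lower in the sSC cell in 7 of 9 clones. The sSC and dSC cells had 2.47 and 33.8 in clone A, 0.19 and 88.1 in B, 46.1 and 19.7 in C, 12.7 and 33.8 in F, 0 and 47.3 in I, 0.35 and 49.2 in J, 10.9 and 32.5 in L, 30.3 and 63.1 in Q, and 19.2 and 10.6 in U. All 9 dSC cells were above 10, while 4 sSC cells were below 3. The difference was -2.47 (SE 0.97, limma adjusted p = 0.511), -2.004 without clone B and -1.05 (SE 1.17) with genes detected in the model. Scn3a differed by -2.24 (SE 0.96, adjusted p = 0.533), with the sSC cell lower in 7 of 9 clones, and by -0.44 (SE 1.06) with genes detected in the model. Trpc5 differed by -2.03 (SE 0.88). Of the genes higher in sSC, Cacnb4, Nalcn and Scn3b had the smallest p-values, with differences of 0.64 (SE 0.75), 0.43 (SE 1.01) and 0.12 (SE 1.03), and the sSC cell was higher in 6, 5 and 5 of 9 clones.

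**Figure D3:**
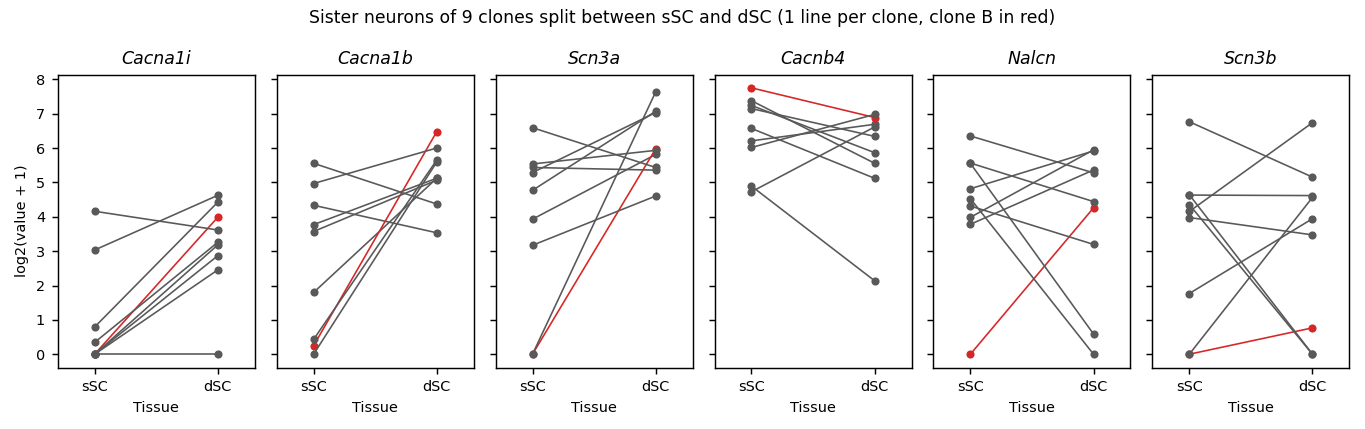
Level as log2(value + 1) of 6 channel genes in the sSC cell (left) and dSC cell (right) of 9 clones, 1 line per clone, with clone B in red. Lines of Cacna1i and Cacna1b climb toward dSC in 7 of 9 clones, while those of Cacnb4, Nalcn and Scn3b run in both directions.

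The second comparison set the drivers apart within sSC, with 11 Fz10-CreER and 5 Sox2-CreER clone means. Among 14320 genes none passed in limma (0% called), and 4.1% had an unadjusted p below 0.05. Of 28 channel genes tested none passed, 1 had an unadjusted p below 0.05, and 20 were lower in Fz10-CreER cells. The median was -0.54, beside -0.38 for all genes, of which 65.97% were lower in Fz10-CreER cells. It was 0.03 with genes detected in the model (0.13 for all genes), -0.30 without the cell of fewest genes and -0.97 without clone H. Fz10-CreER cells had a median of 11544 genes detected and Sox2-CreER cells 13450. In Fz10-CreER cells 7 of 8 astrocyte genes were lower, and their part was not tested.

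Hcn3 showed the smallest p. In 15 Fz10-CreER cells it ran from 0 to 23.8 with a median of 0, against 0 to 32.2 with a median of 8.58 in 7 Sox2-CreER cells. It was at 1 or more in 2 of the Fz10-CreER cells and 5 of the Sox2-CreER cells. The difference was -2.10 (SE 0.85, limma adjusted p = 1.000), and the adjusted p was 0.403 without clone H. Cacnb3 and Hcn2 differed by -1.87 (SE 1.12) and -1.48 (SE 1.05). Cacnb4 had a median of 101.6 in Fz10-CreER and 64.0 in Sox2-CreER cells, a difference of 1.67 (SE 1.00) that was 0.74 (SE 0.93) without clone H. Its opposite-strand partner A430018G15Rik differed by 3.08 (SE 1.09, adjusted p = 1.000) in the same cells. Scn4b and Trpm2 differed by 1.41 (SE 0.99) and 0.59 (SE 1.05). Gm13630, opposite Scn1a, differed by -3.49 (SE 1.18), while Scn1a itself differed by -0.63 (SE 1.14).

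Cells of a clone were then compared with each other. Over 16 clones with both cells in sSC or dSC, limma's moderated F test with tissue as a covariate called 3 of 15132 genes (0.0198%), and 7.8% had an unadjusted p below 0.05. None of the 29 channel genes passed and none had an unadjusted p below 0.05. The correlation between the cells of a clone, taken on deviations from the tissue means, had a median of 0.02 over the channel genes and 0.01 over all genes. The smallest p-values belonged to Cacna1g (r = 0.38, adjusted p = 0.679), Cacna1i (r = 0.38, adjusted p = 0.709) and Scn3b (r = 0.27, adjusted p = 0.711). Trpm4 had the highest correlation, 0.52, with an adjusted p of 0.791. Its opposite-strand partner Rpl14-ps1 had 0.53, and reads of these genes cannot be told apart because strand use is not stated.

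Excitatory and inhibitory neurons were compared through the transmitter classes, with 9 Slc17a6-high and 14 Gad-high clone means over all tissues. The number of genes detected averaged 11408 over clone means in each class, while single cells ran from 7095 to 13815 in Slc17a6-high and from 2661 to 15472 in Gad-high cells. Of 14352 genes, limma called 5 (0.0348%), all lower in Slc17a6-high cells, and 4.6% had an unadjusted p below 0.05. None of the 29 channel genes passed, 1 had an unadjusted p below 0.05, and 21 were higher and 8 lower in Slc17a6-high cells. Their median difference was 0.29, beside 0.05 for all genes, of which 46.9% were lower. Without the cell of fewest genes it was 0.13 (17 higher, 12 lower), beside -0.05 for all genes. With tissue as a covariate it was 0.13 (18 higher, 11 lower), beside 0.03 for all genes. With the classes set at a limit of 50 it was -0.04 (14 higher, 15 lower), beside -0.16 for all genes. Within the 5 clones that hold a cell of each class, the median was -0.47, beside -0.45 for all genes, and the Slc17a6-high cell had fewer genes detected in 3 of 5. Oligodendrocyte markers were lower in Slc17a6-high cells for 8 of 10 genes, with sums of 1149 to 8561 in Slc17a6-high and 1472 to 29070 in Gad-high cells, and their part was not tested.

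Scn3a showed the smallest p. It ran from 14.2 to 264.1 with a median of 45.4 in 11 Slc17a6-high cells, against 0 to 130.02 with a median of 23.3 in 19 Gad-high cells. All Slc17a6-high cells held it, while 3 Gad-high cells were listed at 0, and the upper ranges overlapped. Those 3 cells had 2661, 7652 and 9140 genes detected, below the Gad-high median of 11828. The Slc17a6-high cell of fewest genes, in clone D with 7095, had 103.8. The part of library quality was not tested. The difference was 1.98 (SE 0.76, limma adjusted p = 0.991), and the fit blocked on clone gave 1.10 (SE 1.24). Within the 5 split clones the Slc17a6-high cell was higher in 2 and lower in 3. In the Slc17a6-high and Gad-high cell it had 14.2 and 55.2 in clone A, 103.8 and 1.70 in D, 264.1 and 20.4 in N, 49.3 and 107.4 in R, and 45.4 and 60.1 in U.

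Scn1a had a median of 160.2 in Slc17a6-high cells and 99.0 in Gad-high cells, a difference of 0.83 (SE 0.52, adjusted p = 0.999). Cacna1a had medians of 51.6 and 18.7, a difference of 0.97 (SE 0.66). In the other direction, Trpc1 had a median of 9.27 in Slc17a6-high cells and 23.4 in Gad-high cells (difference -1.18, SE 0.75). Scn3b had 2.95 and 16.8 (-1.25, SE 0.81), and Cacnb4 had 73.0 and 104 (-0.46, SE 0.46). The groups overlapped for each of these genes, and none was past the threshold. With clone as a block the Scn1a difference was -0.24 (SE 0.62) and its sign was reversed.

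**Figure D4:**
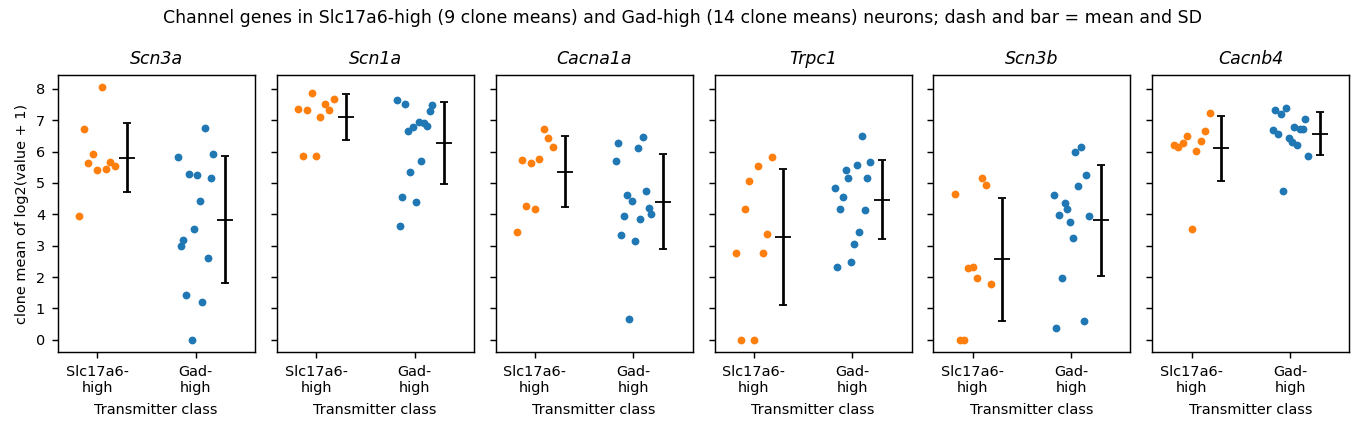
Clone means of log2(value + 1) of 6 channel genes in 9 Slc17a6-high (left, orange) and 14 Gad-high (right, blue) clone means, with the mean and SD of each class beside the points. Slc17a6-high means lie higher for Scn3a, Scn1a and Cacna1a and lower for Trpc1, Scn3b and Cacnb4, and the classes overlap in all 6 panels.

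Among partner proteins, listed for their known roles, 0 of 29 passed and 1 had an unadjusted p below 0.05 between transmitter classes. Of the partners 22 were higher and 7 lower in Slc17a6-high cells, where 46.9% of all genes were lower. Cacna2d1, the alpha2delta subunit that raises calcium channel number at the membrane and binds gabapentin, had a median of 81.8 (6.495 to 479.6) in Slc17a6-high cells and 8.33 (0 to 191.3) in Gad-high cells. The difference was 3.71 (SE 0.81, limma adjusted p = 0.118). In the tissue comparison 0 of 29 partners passed (8 higher and 21 lower in sSC, beside 67.3% of all genes lower). Within clones 0 of 29 passed (5 higher and 24 lower in the sSC cell, beside 76.9% of all genes lower). Between drivers 0 of 29 passed (8 higher and 21 lower in Fz10-CreER, beside 65.97% of all genes lower). For the clone effect 0 of 29 passed. By p the leading partners were Stac2, which holds L-type channels at the membrane, and Cacng7, an AMPA receptor regulator of the gamma subunit family. They differed by -2.45 (SE 0.84) and -1.27 (SE 0.77) between sSC and dSC and by -2.77 (SE 1.11) and -2.37 (SE 0.83) within clones. Of 23 other genes of these families, 6 to 9 passed the filter in each comparison and none was called. Cacng8, another gamma subunit, differed by -1.49 (SE 0.87) between drivers, and its correlation between cells of a clone was 0.48.

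The relation of each channel gene to transmitter balance was read also without classes. The balance is log2(value + 1) of Slc17a6 minus the mean of Gad1, Gad2 and Slc32a1, the vesicular GABA transporter. Over all 36 cells, 4 of the 29 channel genes had a rho of 0.3 or more in size, beside 8.44% of all genes. These were Scn3a (0.389), Cacna1e (0.379), Scn2a (0.3) and Cacnb4 (-0.362). These correlations are descriptions over cells that share clones.

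The same correlations were read within each tissue. In 22 sSC cells Scn1a, Scn2a, Scn8a and Scn9a ran with the balance at rho 0.542, 0.575, 0.499 and 0.397, so higher toward Slc17a6. In 12 dSC cells the same genes had rho -0.133, -0.098, -0.469 and -0.725. Cacna1i showed 0.288 in sSC and -0.750 in dSC. Scn3a kept its sign, with 0.451 in sSC and 0.399 in dSC. The opposite signs of the first 5 genes were seen before they were tested, and in dSC the rho of Scn1a and Scn2a was small.

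The difference of slopes between sSC and dSC was tested in limma over 34 cells, after the data were seen. Of 14609 genes none passed (0% called), and 6.15% had an unadjusted p below 0.05. None of the 29 channel genes passed and 4 had an unadjusted p below 0.05. Scn9a had a slope of 0.22 in sSC and -0.24 in dSC, a difference of 0.47 (SE 0.14, adjusted p = 0.650). Scn2a, Scn8a and Cacna1i had differences of 0.27 (SE 0.12), 0.23 (SE 0.11) and 0.27 (SE 0.13), each with an adjusted p of 0.794 or more. In the other direction the smallest p-values were those of Cacna1b (-0.15, SE 0.15), Hcn2 (-0.08, SE 0.13) and Trpm2 (-0.08, SE 0.15). The median over the 29 genes was 0.10, beside 0.07 for all genes, and -0.01 with genes detected in the model. In that model 1 of the 29 genes had an unadjusted p below 0.05. The differences were 0.42 (SE 0.14) for Scn9a, 0.21 (SE 0.11) for Scn2a, 0.19 (SE 0.10) for Scn8a and 0.18 (SE 0.12) for Cacna1i. For Scn1a the same model gave slopes of 0.16 in sSC and 0.04 in dSC, both above 0, with a difference of 0.12 (SE 0.10). Cells, not clone means, entered this fit, so cells of a clone count as independent. Gm13629, the antisense transcript opposite Scn9a, also had opposite slopes, with a difference of 0.61 (SE 0.17, adjusted p = 0.588), and Gm13630, opposite Scn1a, had 0.55 (SE 0.16). Among partners, Fgf13, a cytosolic factor that binds sodium channels, had a difference of 0.41 (SE 0.13, adjusted p = 0.650), and Cacna2d1 had 0.20 (SE 0.15).

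**Figure D5:**
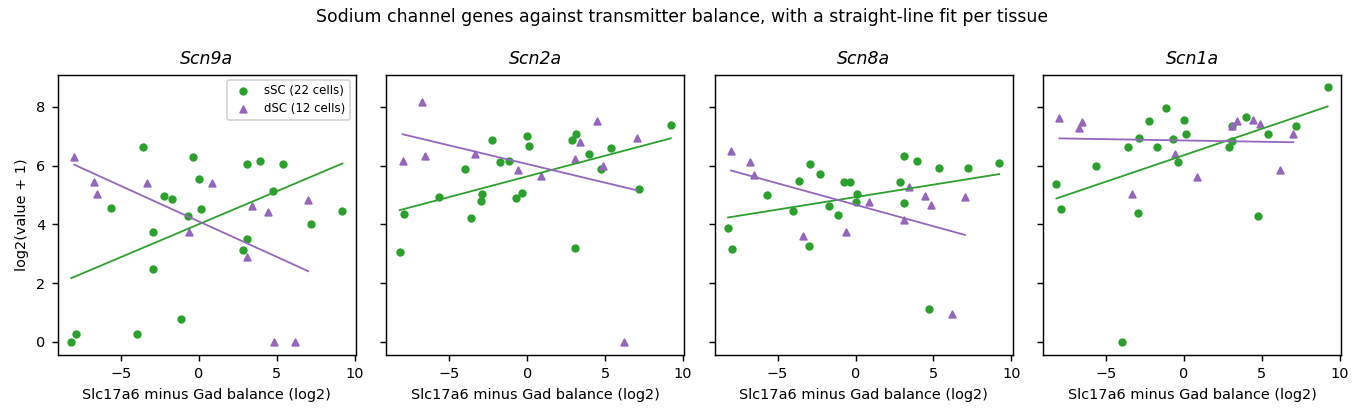
Level as log2(value + 1) of 4 sodium channel genes against transmitter balance (Slc17a6 minus Gad genes, log2) in 22 sSC cells (green circles) and 12 dSC cells (purple triangles), each with a straight-line fit. For Scn9a the sSC line climbs to the Slc17a6 side (rho 0.397) and the dSC line falls (rho -0.725), and no slope difference passed the threshold.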

How the data were processed

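Polyadenylated RNA of each cell was made into a library with Takara's SMART-Seq kit for single cells, according to the labels. The submitters' processing notes list STAR 2.7.9a, R 4.0.3 and build GRCm39. How reads were counted, whether strand was used and how values were scaled is not given in the sources used here. Per gene and cell, the deposited signal is what the authors call TPM over exons and introns. It sums to 2000000 in each of 36 cells, so it was taken as a normalised signal. The plan had assumed plain TPM, and its log-scale tests were kept. Because introns are counted, long genes such as channel pores can gain signal from unspliced RNA.

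Symbols were matched by gene identifier to GENCODE M21, of an older build, for 52083 of 55359 genes. Overlaps were read from the gene coordinates of that annotation. Neighbours were read from the order of RefSeq protein-coding genes along a chromosome. Promoter windows are from RefSeq. Tests used log2(value + 1) and took genes that reached 1 in 25% of the cells compared. Fold differences on this scale understate the difference of low genes. Fits used limma 3.58.1 (R 4.3.3, empirical Bayes moderation, trended and robust) over all genes, adjusted by Benjamini and Hochberg, and 0.05 was the threshold. The 4 transmitter genes were left out of the transmitter fits. The scripts were tested on simulated data. Descriptions used Python 3.11.15 with pandas 2.3.3.

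The named genes are the 3 of smallest p per direction in each comparison and the highest of each role, plus 2 of the other lists, some of which are not reported here. Others (Scn3a and Trpc5 by tissue, Trpm4 by clone, Cacna1i and Scn1a by slope and the opposite-strand genes) were chosen after their values were seen. The members and lists were chosen with earlier results of these data known. The clone letter pairs cells, since by the design of MADM both descend from 1 progenitor in 1 animal, and clone entered as a block. Deviations of the paired cells from the tissue means correlated with a median of 0.01 over all genes. Alternatives changed the pseudocount (0.1 and 10), the filter, the normalisation, the class limit, the covariates and the cells included. The within-clone fits with genes detected in the model and without clone B were chosen after seeing the data.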

Additional observations from a re-analysis of the deposited data

Results flagged for a closer look

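In 24 groups of clone means or cells examined for a value far from the rest, 4 had one, where chance gives about 1 group in 20. Values are log2(value + 1). Cacnb4 in the 9 Slc17a6-high clone means was lowest in clone L, at 3.515, with the next at 6.022. In the dSC cells of the 9 split clones Cacnb4 was again lowest in clone L, at 2.138, with the next at 5.121. The 2 results share the dSC cell of clone L. Nalcn in the sSC cells of split clones was lowest in clone B, at 0.000, with the next at 3.781, and that cell has the fewest genes detected of all 36. Cacna1i in the dSC cells of split clones was lowest in clone F, at 0.000, with the next at 2.455, and the sSC cell of that clone was at 0 as well.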

How the results depend on the processing

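No channel gene passed the threshold in any of 48 fits, and the lowest adjusted p of any was 0.403. Of 234 values of named channel genes under an alternative (differences, slope differences or correlations within clones), 232 kept their direction. These genes were picked by smallest p in the same data, which favours a kept direction. Lifting the filter on low values cannot change any of these values, and genes detected in the model cannot change the correlations within clones. Genes detected averaged 11408 over clone means in each transmitter class. That covariate could thus hardly move the transmitter differences, whose median was 0.29 with and without it. Trpm2 between drivers turned to -0.20 with both tissues in the fit, and Scn1a between transmitter classes turned to -0.24 with clone as the replicate block.

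Counts over all genes moved. Between sSC and dSC 0 genes were called, and 1 at pseudocount 10, after quantile normalisation or with the clone block. Within clones 1 was called, and 0 with genes detected in the model. Between drivers 0 were called, 1 at pseudocount 10, and 0 to 5 on leaving out a Sox2-CreER clone (5 without H, 1 without F). For the clone effect 3 were called, 6 at pseudocount 0.1 and 60 with no filter. Between transmitter classes 5 were called. That was 2 at pseudocount 10, 1 with no filter, 8 with genes detected in the model, 8 without the cell of fewest genes, 0 with the clone block, 0 with tissue as a covariate, 10 for a balance beyond 2, 2 at a limit of 50 and 11 with balance as a continuous covariate. The median over the channel genes between classes was 0.29 as reported, -0.47 with the clone block, -0.04 at a limit of 50, 0.02 with balance as a continuous covariate, and 0.13 both without the cell of fewest genes and with tissue as a covariate. For all genes these medians were 0.05, -0.45, -0.16, 0.01, -0.05 and 0.03, in the same order. The cause of these shifts was not tested. Unknown depth limits all values near 0.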
